A study of Mus musculus with 18 samples.

Results

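The response of colon crypt epithelium to 14 days of colonization was compared between genotype labels, as the difference between 2 differences: COLONIZED-Ern2-/- minus GF-Ern2-/-, less COLONIZED-WT minus GF-WT. This interaction drew on 12 of the 18 RNA-Seq libraries, 3 in each of 4 groups, and was fitted for all 24047 genes of the table at once, of which 17884 received an adjusted p. All groups were C57BL/6 mice and the labels name no transgene: GF-WT and GF-Ern2-/- mice were germ free, and COLONIZED-WT and COLONIZED-Ern2-/- mice were germ free until they received a cecal homogenate of WT specific-pathogen-free donors, 14 days before sampling. Per the study's methods, the Ern2-/- line came from another laboratory, and both genotypes were made germ free by rederivation. Those methods also place the COLONIZED mice in sterile cages outside the isolator, so the move out of the isolator and the microbes cannot be told apart. The labels give no age, sex or litter, and nothing in them says that the libraries of a group came from separate animals, so the p-values measure the spread between these samples.

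Ern2 encodes ERN2 (IRE1beta), an endoplasmic reticulum (ER) stress sensor of mucus-producing epithelia, and its relative Ern1 encodes the IRE1alpha present in most cells. Both sensors can splice the mRNA of the transcription factor Xbp1, which raises genes of ER folding, translocation and vesicle transport. The PERK branch of the same unfolded protein response acts through ATF4 and CHOP (Ddit3) and raises genes such as Chac1 and Trib3. Goblet cells load the ER heavily with the gel-forming mucin MUC2, and they also release lectins and antimicrobial proteins into the colonic lumen, many of which are known to respond to microbes.

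Promoter windows are shown first, for 4 called genes and for the ER stress genes Derl3, Chac1 and Trib3. The latter were not called in the interaction. Side by side, the windows let a reader compare the response elements of the ER stress genes with the windows of the called genes. Each window is 300 bases, from 250 before to 50 after an annotated start, read 5′ to 3′ on the gene's strand from RefSeq on GRCm38.p6, the mouse build also called mm10. Capitals mark a match to 1 of 4 motifs, searched exactly and on both strands: the ER stress element ERSE (CCAAT, 9 bases, CCACG), ERSE-II (ATTGG, 1 base, CCACG), the XBP1 element UPRE (TGACGTGG) and the ATF4 element CARE (TGATGNAAN). Matches to different motifs may overlap.
Derl3, chr10:75893148-75893447, plus strand, with ERSE: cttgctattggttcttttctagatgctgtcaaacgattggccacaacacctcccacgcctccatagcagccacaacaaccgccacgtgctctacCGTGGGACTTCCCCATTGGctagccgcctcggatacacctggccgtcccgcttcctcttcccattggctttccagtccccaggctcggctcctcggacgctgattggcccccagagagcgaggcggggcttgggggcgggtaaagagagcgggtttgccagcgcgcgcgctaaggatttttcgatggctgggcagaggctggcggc
Chac1, chr2:119350992-119351291, plus strand, with CARE: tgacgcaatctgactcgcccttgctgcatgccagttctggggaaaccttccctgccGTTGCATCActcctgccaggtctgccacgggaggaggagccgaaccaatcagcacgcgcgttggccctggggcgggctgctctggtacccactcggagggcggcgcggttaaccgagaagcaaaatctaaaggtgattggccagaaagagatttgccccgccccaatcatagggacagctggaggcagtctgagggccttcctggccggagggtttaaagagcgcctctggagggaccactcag
Trib3, chr2:152344011-152344310, minus strand, with CARE: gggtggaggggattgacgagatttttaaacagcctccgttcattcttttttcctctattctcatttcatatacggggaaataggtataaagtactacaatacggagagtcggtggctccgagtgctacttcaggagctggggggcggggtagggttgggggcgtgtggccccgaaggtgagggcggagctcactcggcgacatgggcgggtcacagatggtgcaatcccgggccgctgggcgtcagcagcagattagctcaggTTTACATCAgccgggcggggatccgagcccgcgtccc
Pla2g4c, chr7:13325417-13325716, plus strand, the first of its 2 windows: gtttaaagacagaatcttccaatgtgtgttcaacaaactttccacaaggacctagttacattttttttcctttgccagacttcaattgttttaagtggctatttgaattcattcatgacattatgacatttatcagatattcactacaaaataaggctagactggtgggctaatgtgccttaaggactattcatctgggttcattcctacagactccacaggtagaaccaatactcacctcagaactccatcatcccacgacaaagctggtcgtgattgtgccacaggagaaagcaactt
Meg3, chr12:109540746-109541045, plus strand, the first of its 2 windows: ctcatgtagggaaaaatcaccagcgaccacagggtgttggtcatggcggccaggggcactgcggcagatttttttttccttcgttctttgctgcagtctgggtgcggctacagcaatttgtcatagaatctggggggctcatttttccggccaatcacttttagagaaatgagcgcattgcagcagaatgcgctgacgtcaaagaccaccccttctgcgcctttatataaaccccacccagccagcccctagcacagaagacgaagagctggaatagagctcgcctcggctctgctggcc
Pnliprp2, chr19:58759473-58759772, plus strand: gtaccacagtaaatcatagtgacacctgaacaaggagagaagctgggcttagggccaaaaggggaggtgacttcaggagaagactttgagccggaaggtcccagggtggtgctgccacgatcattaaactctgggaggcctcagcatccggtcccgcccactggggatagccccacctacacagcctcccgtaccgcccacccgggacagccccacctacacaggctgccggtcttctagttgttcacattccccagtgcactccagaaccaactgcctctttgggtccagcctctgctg
Itln1, chr1:171535245-171535544, minus strand: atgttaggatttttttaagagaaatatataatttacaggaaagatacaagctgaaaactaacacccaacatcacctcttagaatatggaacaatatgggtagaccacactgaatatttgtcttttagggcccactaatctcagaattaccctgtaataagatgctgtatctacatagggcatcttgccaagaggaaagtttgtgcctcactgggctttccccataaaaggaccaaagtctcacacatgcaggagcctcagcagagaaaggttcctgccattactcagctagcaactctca
None of the windows of these 4 called genes held any of the motifs, which says only that these letters are not in these windows. Among all 32851 windows of the same length ERSE was in 0.119%, ERSE-II in 0.0365%, UPRE in 0.676% and CARE in 3.95%. By gene, ERSE was in the windows of 9 of 26 genes for ER chaperones, folding and degradation (34.6%, against 0.137% of all symbols), and CARE in those of 11 of 31 genes of the ATF4 and CHOP stress response (35.5%, against 4.5%).

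The targeted gene was examined first. Ern2 (ENSMUSG00000030866, chr7:122169893-122186207, minus strand) had normalised read counts, that is counts divided by DESeq2 size factors, of 3152, 2343 and 3010 in GF-WT mice and 3338, 2974 and 2884 in COLONIZED-WT mice, in the order of replicates 1, 2 and 3. The libraries labelled GF-Ern2-/- held 3514, 479 and 4095, and those labelled COLONIZED-Ern2-/- held 3162, 1640 and 2319. The groups therefore overlapped. Of the libraries labelled Ern2-/-, GF replicates 1 and 3 and COLONIZED replicate 1 had Ern2 counts within or above the WT range and went against their label. The cut was the lowest WT count, 2343, and COLONIZED-Ern2-/- replicate 3, at 2319, fell just below it and was kept. Only GF-Ern2-/- replicate 2 was far below the WT range. A gene-level count does not show which exons the reads covered, so reads from outside a deleted part would be counted too, as would all reads of a library whose label had been exchanged, and which applied was not tested. Some other genes differed between the labels without overlap, and B3gnt6 is given as an example. Among the COLONIZED libraries alone, the labels did not overlap for 11.5% of the 17884 tested genes with Ern2-/- lower. The same held for 11.8% in the opposite direction. The share over GF and COLONIZED together was not counted, so this example does not test the labels. B3gnt6, which encodes an enzyme of mucin O-glycans, had 218, 334 and 633 normalised counts in GF-WT and 485, 579 and 781 in COLONIZED-WT libraries, all above the 103, 49.8 and 84.4 of GF-Ern2-/- and the 175, 85.8 and 107 of COLONIZED-Ern2-/-. The Ern2-/- groups are called by their labels throughout, and the leading counts and lists are also given without those 3 libraries, which leaves GF-Ern2-/- with replicate 2 alone, assumed to vary like the others. That replicate stood apart from its group, with a chi-square per degree of freedom of 188 and 129 against replicates 1 and 3, which differed by 44.7 from each other. Its surface colonocyte and ion transport genes summed to 37658 CPM (counts scaled to a fixed library total) against 15200 and 16380. Its ER chaperone genes summed to 8164 CPM against 7315 and 6398, and its UPR sensor genes to 600.2 against 1013 and 1010.

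The 12 libraries held 13784000 to 23154000 counts, rounded to 5 digits. Summed epithelial markers made up 11416 to 14183 CPM, immune markers 6.54 to 15.9 and mesenchymal markers 16.3 to 40.5. The ribosomal RNA precursor Rn45s took 1.21 to 3.57% of counts in the WT libraries and 0.333 to 0.844% in those labelled Ern2-/-. Y-linked genes were expressed in 0 of 3 GF-WT libraries and in 2 of 3 in each of the other 3 groups, so the sex of the mice was not balanced over the interaction.

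Colonization raised 4 named genes in WT mice that rose less, or did not pass the test, in mice labelled Ern2-/-. These were Pla2g4c, a phospholipase A2 that frees fatty acids from membrane lipids, Meg3, an imprinted long noncoding RNA, Pnliprp2, a lipase related to pancreatic lipase, and Itln1, a secreted lectin that binds microbial glycans. They were 4 of the 5 genes past an adjusted p of 0.01 in the DESeq2 interaction, of 17884 genes tested (0.0280%), and 0 genes were called in the other direction. At an unadjusted p under 0.05 the interaction was lower for 589 genes (3.29%) and higher for 441 (2.47%). The edgeR quasi-likelihood test called 0 genes, with 947 of 13045 at an unadjusted p under 0.05 (564 lower and 383 higher), and gave an adjusted p of 0.659 for each of the 4. With sex as a covariate DESeq2 called 0 genes, with an adjusted p of 0.0661 for Pla2g4c and Meg3, 0.292 for Pnliprp2 and 0.373 for Itln1. In the same order their log2 interactions were -5.00, -4.02, -2.71 and -2.87 with that covariate, and -4.94, -4.26, -3.72 and -3.44 with edgeR. Without the 3 libraries whose Ern2 counts went against the label it called 419 genes, 289 higher and 130 lower, of which 2 were among the 5 (Pnliprp2 and Itln1), with the GF-Ern2-/- replicate that stood apart as the only library of its group. Leaving out single libraries gave 0 to 5 calls, and the 0 came without COLONIZED-Ern2-/- replicate 3. Leaving out any of 9 other single libraries also brought the count to 3 or fewer: to 1 without GF-WT replicate 2 (a gene that was not among the 5), COLONIZED-WT replicate 1 or COLONIZED-Ern2-/- replicate 1, to 2 without COLONIZED-WT replicate 3 or GF-Ern2-/- replicate 2, and to 3 without GF-WT replicate 3, GF-Ern2-/- replicate 1 or 3, or COLONIZED-Ern2-/- replicate 2. Without GF-WT replicate 1 the count was 4, of which 3 were higher, and none of the 4 named genes was called (adjusted p from 0.0171 to 0.0325).

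**Figure D1:**
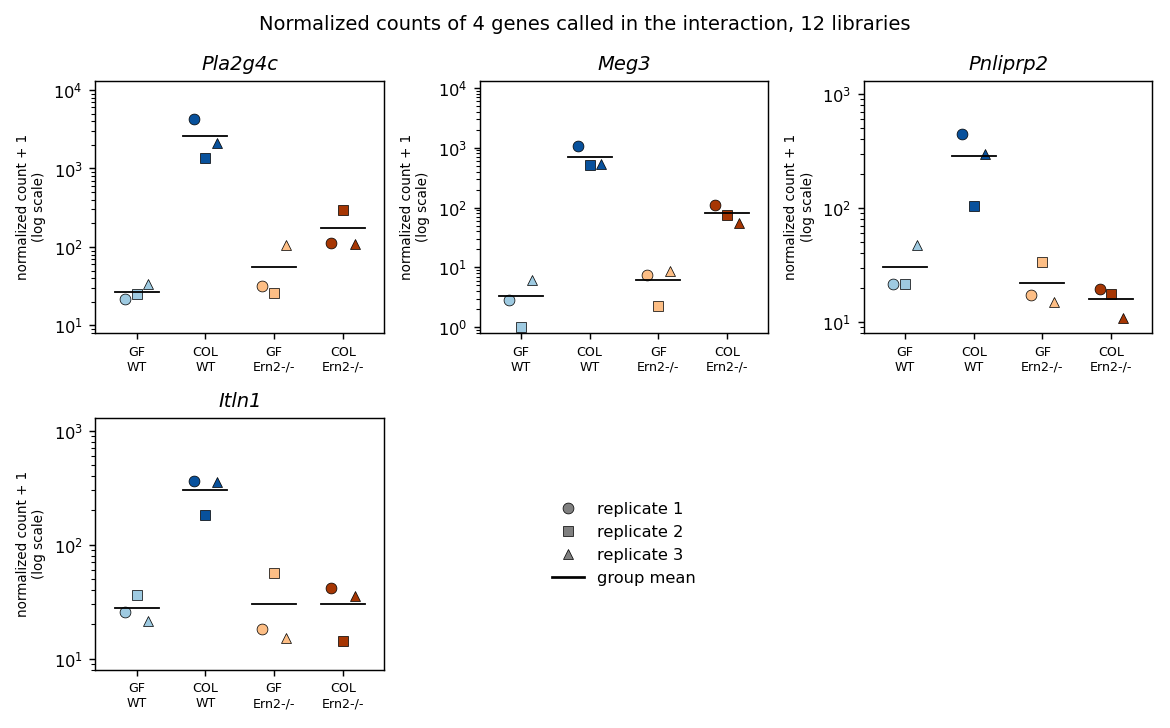
Normalised read counts plus 1 (log axis) of 4 of the 5 genes called in the interaction, 1 point per library with the shape giving the replicate and a bar at the group mean, for the GF and COLONIZED (COL) groups of each genotype label. In every panel the 3 COLONIZED-WT libraries lie above the 3 COLONIZED-Ern2-/- libraries, and the GF groups overlap.

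Pla2g4c had the largest interaction of the 4 called genes (ENSMUSG00000033847, chr7:13324655-13360672, plus strand). Its normalised counts were 20.7, 24.1 and 32.6 in GF-WT mice and 4295, 1357 and 2093 in COLONIZED-WT mice. Under the Ern2-/- label it had 31.0, 24.9 and 106 in GF mice and 109.7, 299 and 109 in COLONIZED mice. All COLONIZED-WT libraries were high and did not overlap the COLONIZED-Ern2-/- libraries, as 11.5% of all tested genes did with Ern2-/- lower, while the GF groups overlapped. Pla2g4c rose in WT by 6.65 on the log2 scale (a fitted 100.1-fold, DESeq2 adjusted p = 3.08e-19), and its response in mice labelled Ern2-/- was 1.68 (3.20-fold, adjusted p = 0.0592). The interaction was -4.97 (SE 0.964, 95% interval -6.86 to -3.08, adjusted p = 0.00228).

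Meg3, a maternally expressed noncoding RNA annotated as a lincRNA, rose in both genotype labels (ENSMUSG00000021268, chr12:109541001-109571726, plus strand). Its normalised counts were 1.88, 0 and 5.14 in GF-WT mice and 1076, 513 and 534 in COLONIZED-WT mice. Under the Ern2-/- label it had 6.38, 1.24 and 7.68 in GF mice and 109, 73.6 and 54.3 in COLONIZED mice. Each COLONIZED library was above each GF library of its label, and the share of all genes so separated was not counted. The rise was 8.23 in WT (adjusted p = 1.22e-33) and 3.94 in mice labelled Ern2-/- (adjusted p = 5.77e-10), with an interaction of -4.30 (SE 0.853, 95% interval -5.97 to -2.62, adjusted p = 0.00283). The interaction of Meg3 was -2.54 without the libraries whose Ern2 counts went against the label. GF counts were so low, 0 to 7.68 over both groups, that these fitted fold changes depend on few reads.

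Other transcripts of the imprinted Dlk1-Dio3 region, on the same chromosome and chosen after the values of Meg3 were seen, were not called in the interaction. Rian, a noncoding RNA that starts 32.2 kb after Meg3, had 114, 160.3 and 244 normalised counts in COLONIZED-WT and 64.0, 30.1 and 30.8 in COLONIZED-Ern2-/-, with an interaction of -0.91 (SE 1.57). Mirg, a host RNA of a microRNA cluster 68 kb further on, was at 0 in all GF libraries, at 34.4, 31.7 and 35.4 in COLONIZED-WT and at 4.39, 2.23 and 0 in COLONIZED-Ern2-/- (unadjusted p of the interaction = 0.0368). Dlk1, the paternally expressed gene 77.7 kb before Meg3, encodes a membrane protein of the Notch ligand family and had an interaction of -1.69 (SE 1.37, unadjusted p = 0.218).

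Pnliprp2 encodes pancreatic lipase-related protein 2, which hydrolyses galactolipids (ENSMUSG00000025091, chr19:58759719-58777534, plus strand). Its normalised counts were 20.7, 20.6 and 46.3 in GF-WT mice and 448, 102 and 298 in COLONIZED-WT mice. Under the Ern2-/- label it had 16.4, 32.4 and 14.1 in GF mice and 18.4, 16.7 and 9.87 in COLONIZED mice. The 3 COLONIZED-WT libraries were above all other libraries of the 12, and the share of all genes so separated was not counted. The response was 3.27 in WT (adjusted p = 2.95e-08) and -0.46 in mice labelled Ern2-/- (adjusted p = 0.616), and the interaction was -3.74 (SE 0.776, 95% interval -5.26 to -2.21, adjusted p = 0.00661). Of 15 markers of pancreatic acinar cells 9 were tested, and 8 of the 9 had an interaction below 0, with a median of -0.94 and 0 at an unadjusted p under 0.05. Their summed level ran from 213 to 446 CPM in GF-WT, 155 to 208 in COLONIZED-WT, 303 to 462 in GF-Ern2-/- and 98.5 to 251 in COLONIZED-Ern2-/-, and their part in the result for Pnliprp2 was not tested. Among them Cpa1, Pnlip and Amy2a5 were at 0 in all 12 libraries and Ctrb1 reached 1.71 normalised counts, while Cela1 ran from 1738 to 8538. Clps, which encodes the lipase cofactor colipase and was looked up after the values were seen, had an interaction of -1.34 (unadjusted p = 0.00341, adjusted p = 0.844).

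Itln1 encodes intelectin-1, a lectin that goblet and Paneth cells secrete and that binds sugars on microbial surfaces (ENSMUSG00000038209, chr1:171518122-171535294, minus strand). Its normalised counts were 24.5, 35.3 and 20.6 in GF-WT mice and 360.3, 181 and 356 in COLONIZED-WT mice. Under the Ern2-/- label it had 17.3, 56.0 and 14.1 in GF mice and 40.4, 13.4 and 34.6 in COLONIZED mice. Itln1 was higher than in GF in every COLONIZED-WT library, and the share of all genes so separated was not counted. In mice labelled Ern2-/- its GF and COLONIZED libraries overlapped. The response was 3.48 in WT (11.2-fold, adjusted p = 6.44e-10) and 0.03 in mice labelled Ern2-/- (1.02-fold, adjusted p = 0.977), and the interaction was -3.45 (SE 0.728, 95% interval -4.88 to -2.02, adjusted p = 0.00752). Itln1 was the only called gene on any of the lists of pathways and cell types. 

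Conventionally raised mice, which the interaction did not use, were measured in 6 further libraries. In CONV-WT and CONV-Ern2-/- libraries, normalised among themselves, Pla2g4c had 5552, 1678 and 2381 counts in CONV-WT and 159.9, 751 and 99.7 in CONV-Ern2-/-, a log2 difference of -3.25 (SE 0.736, adjusted p = 0.000786). Meg3 had 853, 1971 and 489 in CONV-WT and 6.29, 55.8 and 16.3 in CONV-Ern2-/-, a log2 difference of -5.42 (SE 0.750, adjusted p = 4.20e-10). In each case the 3 CONV-WT libraries were above the 3 CONV-Ern2-/- libraries, and the lipase and the lectin followed. The share of all genes so separated in CONV was not counted. CONV-WT replicate 3 stood apart from its group, with a chi-square per degree of freedom of 187 and 143 against replicates 1 and 2, which differed by 23.9, and with 16810 normalised counts of Muc2 against 148100 and 127600. Pnliprp2 had 835, 385 and 123 in CONV-WT and 10.5, 23.5 and 9.07 in CONV-Ern2-/-, a log2 difference of -4.98 (SE 0.696, adjusted p = 6.99e-10). Itln1 had 1080, 529.9 and 225 in CONV-WT and 13.3, 27.9 and 23.6 in CONV-Ern2-/-, a log2 difference of -4.85 (SE 0.597, adjusted p = 9.13e-13). These 4 were all called lower by DESeq2 where 1.86% of 13260 tested genes were (246 genes), and edgeR called 0 of the 4 in the same libraries, with adjusted p from 0.0604 to 0.158. Leaving out single CONV libraries, an alternative chosen after seeing the data, left 3 of the 4 called without CONV-WT replicate 1, CONV-WT replicate 3 or CONV-Ern2-/- replicate 1, with Pla2g4c lost each time, and all 4 without each of the others. The 246 genes became 81 without CONV-WT replicate 2 and 712 without CONV-WT replicate 3. Y-linked genes were expressed in 1 of 3 CONV-WT and 3 of 3 CONV-Ern2-/- libraries. With sex as a covariate, also chosen after seeing the data, DESeq2 called 82 genes lower in CONV-Ern2-/-, with Pla2g4c, Pnliprp2 and Itln1 among them and an adjusted p of 0.0368 for Meg3. Ern2 itself had 2056, 2036 and 1393 in CONV-WT and 668, 1071 and 977 in CONV-Ern2-/-.

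Against these few genes, called with all 12 libraries, most of the colonization response in those libraries had the same direction in both genotype labels. The overlap and direction counts below were not repeated without the 3 libraries whose Ern2 counts went against the label. The share of all genes with the same sign in both labels was not counted. In WT mice 1933 of 13112 genes were called (14.7%), 1016 higher (7.75%) and 917 lower (6.99%), and in mice labelled Ern2-/- 1743 of 13451 (13.0%), 885 higher (6.58%) and 858 lower (6.38%). These were 2424 and 2261 without the 3 libraries whose Ern2 counts went against the label. These responses share no library. Over the 11949 genes with a mean of at least 20 normalised counts and an adjusted p in both responses, 1863 were called in WT and 1684 in mice labelled Ern2-/-, and 990 in both, which is 53.1% of the former and 58.8% of the latter. All 990 went the same way in both. Of the 1863 genes called in WT, 1837 (98.6%) had the same sign in mice labelled Ern2-/-, with a median ratio of 0.78 between the log2 responses. Of the 1684 called in mice labelled Ern2-/-, 1662 (98.7%) had the same sign in WT, with a median ratio of 0.81 taken the other way. The response was smaller in the other label for 1344 of the 1863 and 1212 of the 1684, in genes chosen by their call in 1 label. Across genes, which are not independent replicates and share library depth, Pearson's r of the responses was 0.746 and Spearman's rho 0.701. The interaction had a median SE of 0.29, and its size was over 1 on the log2 scale for 2.92% of these genes.

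**Figure D2:**
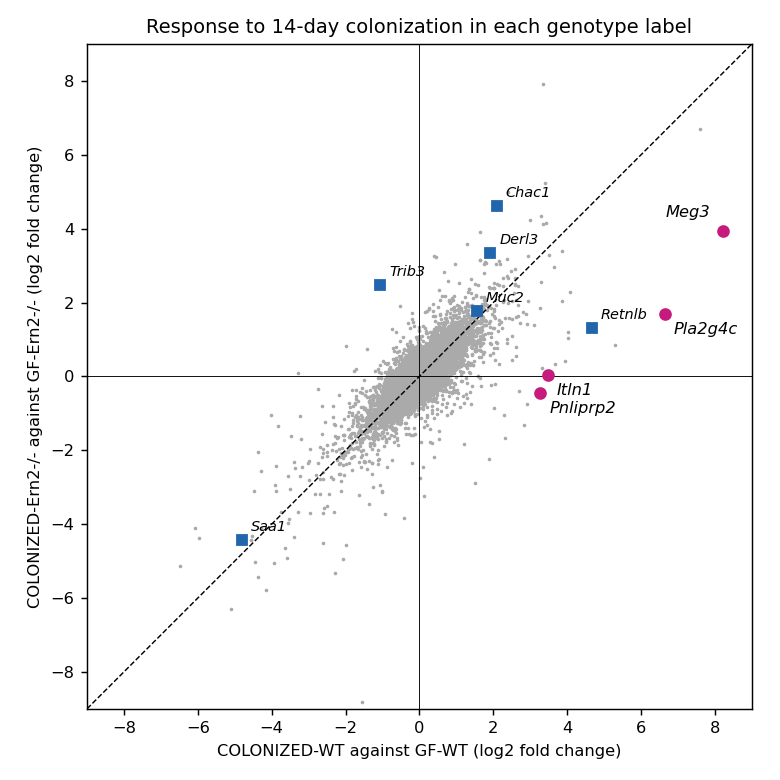
Log2 fold change of COLONIZED against GF in mice labelled Ern2-/- (y axis) against that in WT mice (x axis), 1 grey point per gene with a mean of at least 20 normalised counts, with 4 of the 5 genes called in the interaction in magenta, 6 other named genes in blue and equal responses on the dashed line. The 4 marked genes lie far below the line at the right, Chac1, Derl3 and Trib3 lie above it, and 6 genes lie outside the plotted range of 9 in either direction.

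The next genes by unadjusted p were not called. Among those with a lower response in mice labelled Ern2-/-, Aldh1b1, a mitochondrial aldehyde dehydrogenase, had an interaction of -0.80 (SE 0.202, adjusted p = 0.207). Gadd45g, a growth arrest and DNA damage gene, had -1.70 (SE 0.458), the transcription cofactor Lbh -0.84 (SE 0.233), and Anxa13, an annexin of intestinal epithelium, -1.50 (SE 0.417). In the other direction the lowest p belonged to Tmem245, a membrane protein gene, with 1.14 (SE 0.292, adjusted p = 0.226). Lama3, a laminin chain of the basement membrane, had an interaction of 2.50 (SE 0.713), the adhesion receptor Gpr116 2.80 (SE 0.818), and Casc5, a kinetochore scaffold, 1.39 (SE 0.409). The remaining 6 of the 10 so listed, Rfx3, Tanc1, Jade3, Socs6, Pear1 and Fgd6, had interactions from 0.59 to 1.05.

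**Figure D3:**
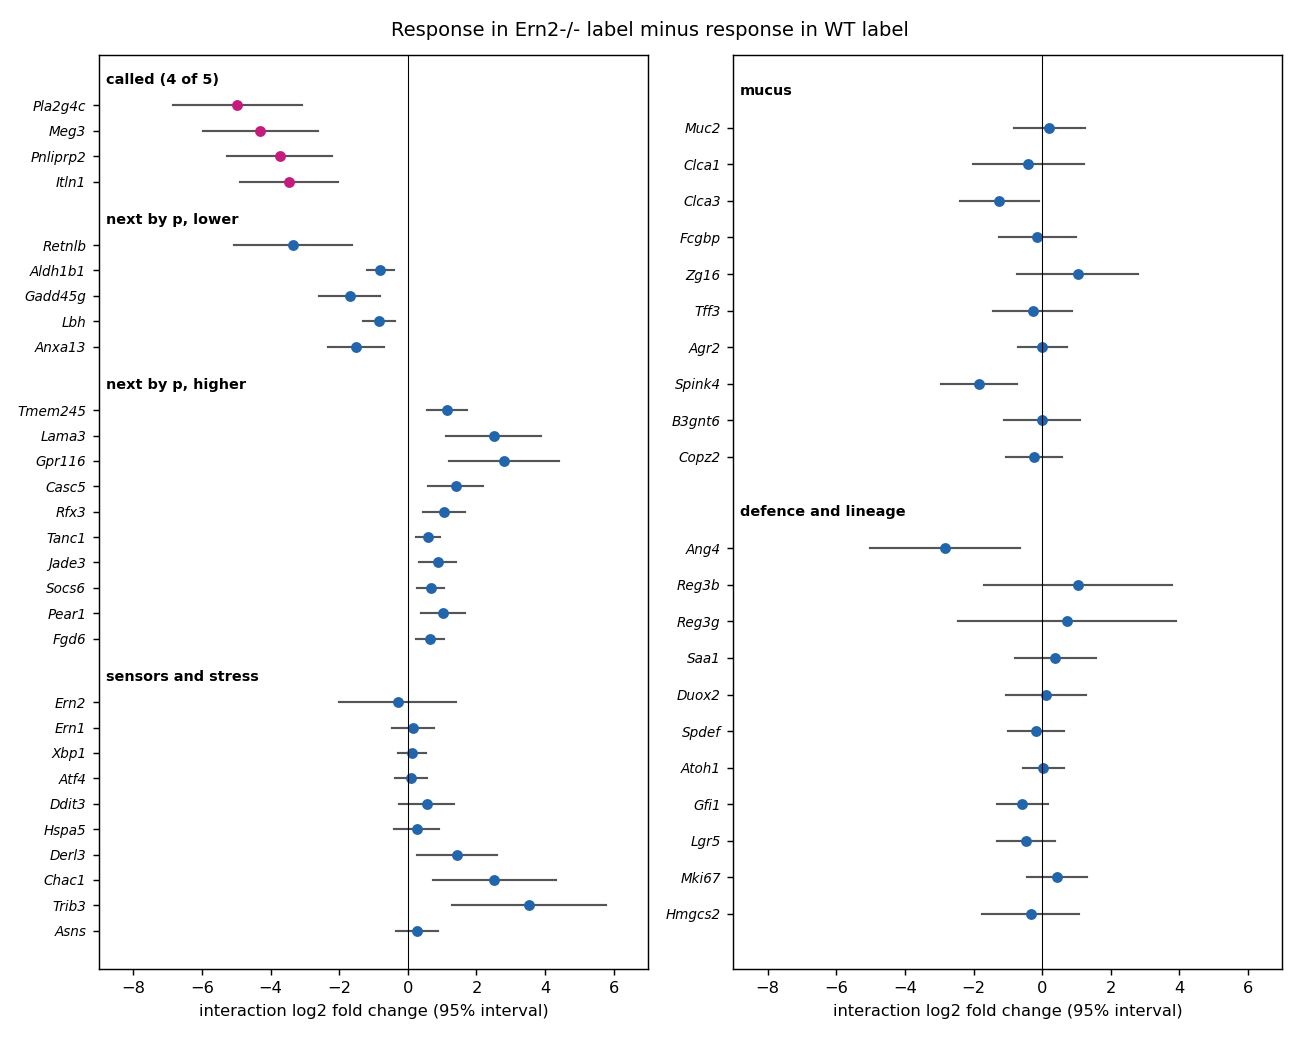
Interaction log2 fold changes (points) with 95% intervals (lines) of 4 of the 5 called genes, the next genes by unadjusted p and named genes for ER stress, mucus, defence and lineage. The 4 called genes in magenta lie between -4.97 and -3.45, and the intervals of Muc2, Agr2, Hspa5 and Xbp1 include 0.

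Of 30 listed antimicrobial and lectin genes 29 were in the table and 22 were tested, of which 15 had an interaction below 0, and 7 had a lower interaction at an unadjusted p under 0.05 (31.8%, against 3.29% of all genes) and 0 a higher one, with a median of -1.06 against -0.002 over all genes. Without Cook's filter 24 were tested, and 8 were lower. The median was -0.60 without GF-Ern2-/- replicate 2 and -1.90 without COLONIZED-Ern2-/- replicate 1. Only Itln1 was called. In WT 6 members rose and 1 fell, and in mice labelled Ern2-/- 2 rose and 1 fell, where 7.75% and 6.58% of all genes rose. Their summed level ran from 12658 to 14729 CPM in GF-WT, 11067 to 15019 in COLONIZED-WT, 9454 to 16934 in GF-Ern2-/- and 7237 to 11998 in COLONIZED-Ern2-/-, and only GF-WT and COLONIZED-Ern2-/- did not overlap. Retnlb encodes RELMbeta, a goblet cell protein that acts on bacterial membranes. It had 211, 403 and 464 normalised counts in GF-WT mice and 11638, 5483 and 10179 in COLONIZED-WT mice, and in the libraries labelled Ern2-/- 150.3, 208 and 145 in GF and 596, 93.6 and 561 in COLONIZED. COLONIZED-WT libraries were all above the COLONIZED-Ern2-/- libraries, as held for 11.5% of all tested genes. Retnlb rose in WT by 4.66 (adjusted p = 1.36e-11), its response in mice labelled Ern2-/- was 1.32 (adjusted p = 0.116), and the interaction of -3.35 (SE 0.878) had an adjusted p of 0.311. It was called without COLONIZED-Ern2-/- replicate 2. Ang4, an antimicrobial ribonuclease, had 149.7, 118 and 905 in GF-WT mice and 6180, 3971 and 8989 in COLONIZED-WT mice, and under the Ern2-/- label 98.4, 94.6 and 225 in GF mice and 307, 257 and 399 in COLONIZED mice. Ang4 rose in WT by 4.03 (adjusted p = 9.80e-06), and its interaction was -2.82 (SE 1.11, unadjusted p = 0.0111, not called). It was called without GF-WT replicate 3 and with the replicate block. Reg4, a C-type lectin of secretory cells, had an interaction of -2.05 with responses of 2.62 in WT, which was called, and 0.56 in mice labelled Ern2-/-, which was not. Reg3b and Reg3g, bactericidal C-type lectins, had interactions above 0. Reg3b rose in both labels, by 3.29 and 4.34, and Reg3g had 3.42 and 4.14, of which the latter was called. Their intervals for the interaction, -1.70 to 3.79 and -2.45 to 3.90, were wide. Ang and Ang4, and the Reg3 genes, belong to families of related genes, so some of their reads may be shared. Without the 3 libraries whose Ern2 counts went against the label 6 of 15 tested members were lower at an unadjusted p under 0.05, against 11.9% of all genes.

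Mucus genes were divided. Muc2, the gel-forming mucin, rose in both labels, by 1.55 in WT (adjusted p = 0.000504) and 1.76 in mice labelled Ern2-/- (adjusted p = 7.01e-05), with an interaction of 0.21 (SE 0.529, 95% interval -0.83 to 1.25). The interaction of Muc2 was 1.21 (adjusted p = 0.0002) and was called without the 3 libraries whose Ern2 counts went against the label. Its counts were 60055, 63783 and 62228 in GF-WT mice, 169380, 167810 and 208820 in COLONIZED-WT mice, 47752, 12111 and 31656 in GF-Ern2-/- and 146900, 90500 and 73003 in COLONIZED-Ern2-/-. All GF-WT libraries were above all GF-Ern2-/- libraries, and all COLONIZED-WT above all COLONIZED-Ern2-/- libraries. The latter held for 11.5% of all tested genes, and the share in GF was not counted. Agr2, a disulfide isomerase needed for mucin folding, rose by 1.54 and 1.55. Spink4, a protease inhibitor gene of goblet cells, had 4814, 4896 and 2060 counts in GF-WT mice and 25138, 19796 and 27447 in COLONIZED-WT mice, and 4578, 6464 and 2816 in GF-Ern2-/- and 11038, 3841 and 8983 in COLONIZED-Ern2-/-. It rose in WT by 2.62 (adjusted p = 6.93e-09), and its interaction of -1.84 (SE 0.565, unadjusted p = 0.00116) was not called. Clca3, listed beside Clca1 among the calcium-activated chloride channel regulators, had an interaction of -1.25 (unadjusted p = 0.0319). Under the symbols of the deposited counts, Clca3 had a mean of 61161 normalised counts over the 12 libraries and Clca1 76.1. Fcgbp, which crosslinks mucus, had -0.14 (SE 0.568), the trefoil factor Tff3 -0.28 (SE 0.585), the bacteria-aggregating lectin Zg16 1.03 (SE 0.902) and Clca1 -0.40 (SE 0.827). Of 14 tested secreted mucus proteins 3 (Itln1, Spink4 and Clca3) were lower in the interaction at an unadjusted p under 0.05 (3.29% of all genes were) and 0 were higher. Of 13 tested without the 3 libraries 5 were lower and 2 higher, where 11.9% of all genes were lower and 12.9% higher. In WT 6 rose and 1 fell, and in mice labelled Ern2-/- 3 rose and 1 fell, where 7.75% and 6.58% of all genes rose. The goblet signature of 400 genes, which the study took from earlier single-cell work, had a median interaction of -0.02, with 18 members lower (4.50%) and 7 higher (1.75%) at that p. With sex as a covariate this turned, to 8 lower and 25 higher with a median of 0.07, beside 405 lower and 491 higher over all genes. With all 18 libraries it was 7 lower and 4 higher, beside 473 and 312. The 18 became 8 to 39 with single libraries left out, 8 without COLONIZED-Ern2-/- replicate 2, 9 without GF-WT replicate 3 and 39 without COLONIZED-Ern2-/- replicate 1, where 266, 324 and 576 of all genes were lower. In WT 67 rose and 16 fell, in mice labelled Ern2-/- 48 rose and 15 fell, and 47 were called in both, where 14.7% and 13.0% of all genes were called. Without the 3 libraries 65 of 398 were lower and 23 higher, beside 1462 lower and 1589 higher of 12275 genes in all. In bulk tissue fewer cells of a type and less RNA per cell cannot be told apart.

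**Figure D4:**
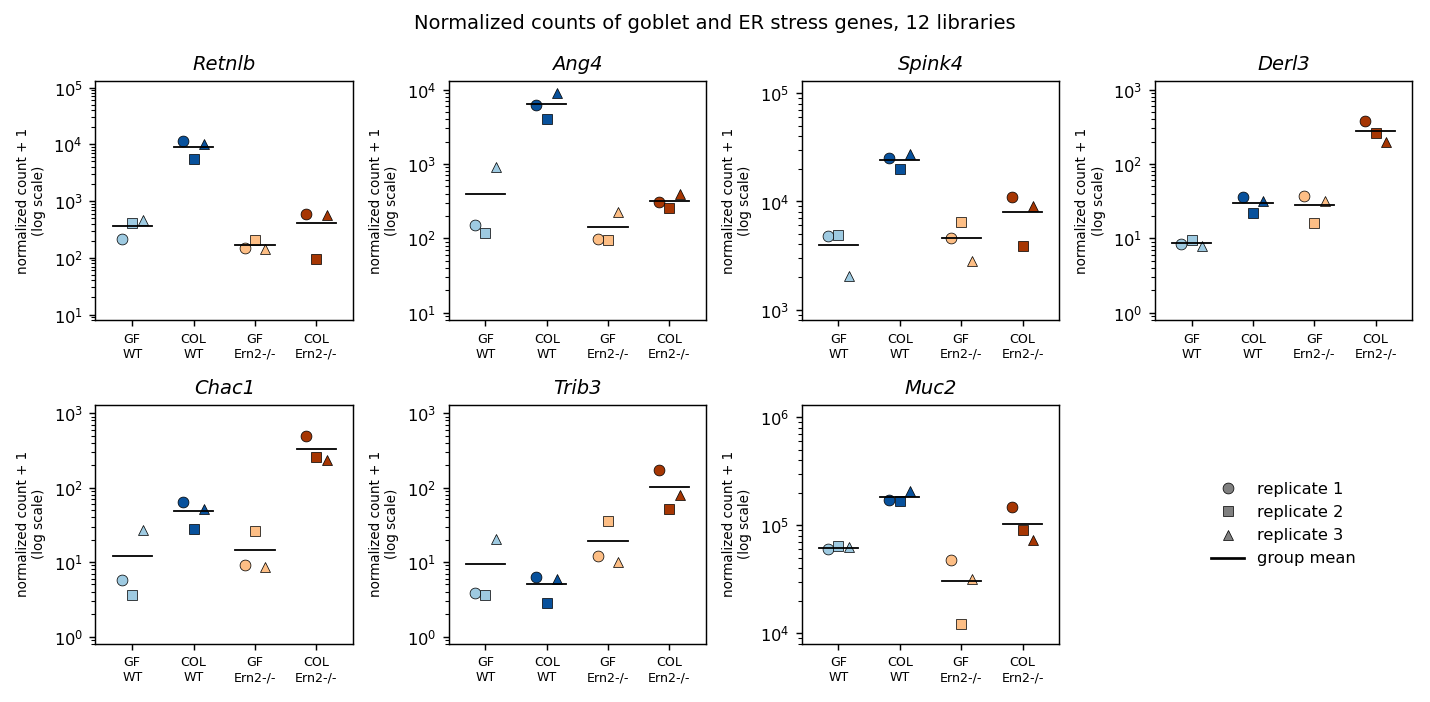
Normalised read counts plus 1 (log axis) of 7 goblet cell and ER stress genes in the GF and COLONIZED (COL) groups, 1 point per library with the shape giving the replicate and a bar at the group mean. For Retnlb, Ang4 and Spink4 the COLONIZED-WT libraries lie above the COLONIZED-Ern2-/- libraries, and for Derl3, Chac1 and Trib3 below them.

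The study named Derl3, Chac1 and Trib3 as the genes most raised in COLONIZED-Ern2-/- against COLONIZED-WT crypts. That contrast compares the genotypes after colonization only and is not the interaction. Their interactions were above 0 and were not called. Derl3, a component of ER-associated degradation whose window holds the ERSE shown above, had 7.53, 8.60 and 6.85 counts in GF-WT mice and 35.3, 20.8 and 30.4 in COLONIZED-WT mice, and 36.4, 14.9 and 30.7 in GF-Ern2-/- and 382, 261 and 199 in COLONIZED-Ern2-/-. The COLONIZED-Ern2-/- libraries were above all the others, and the GF-Ern2-/- libraries were above the GF-WT libraries. The share of all genes so separated was not counted. Derl3 rose by 1.91 in WT (adjusted p = 0.000463) and 3.34 in mice labelled Ern2-/- (adjusted p = 3.61e-16), with an interaction of 1.43 (SE 0.591, unadjusted p = 0.0155). Chac1, a glutathione-degrading enzyme whose window holds a CARE, had 4.71, 2.58 and 25.7 in GF-WT mice and 62.7, 27.2 and 51.1 in COLONIZED-WT mice, and 8.20, 24.9 and 7.68 in GF-Ern2-/- and 495, 254 and 236 in COLONIZED-Ern2-/-. The interaction of Chac1 was 2.52 (SE 0.913, unadjusted p = 0.00579), from a response of 2.09 in WT (adjusted p = 0.00899) and 4.61 in mice labelled Ern2-/- (adjusted p = 2.59e-10). Without GF-WT replicate 3, the highest of its group, the interaction of Chac1 was 0.91. Trib3, a pseudokinase that restrains AKT and also has a CARE, had 2.82, 2.58 and 19.7 in GF-WT mice, 5.30, 1.81 and 4.91 in COLONIZED-WT mice, 10.9, 34.9 and 8.96 in GF-Ern2-/- and 171, 51.3 and 77.7 in COLONIZED-Ern2-/-. Its responses were -1.07 in WT (adjusted p = 0.383) and 2.46 in mice labelled Ern2-/- (adjusted p = 0.00808), with an interaction of 3.54 (SE 1.14, unadjusted p = 0.00193, adjusted p = 0.844). Without GF-WT replicate 3, at 19.7 also the highest of its group, the interaction of Trib3 was 1.90. The ER chaperone Hspa5 (BiP) rose in both labels, by 1.35 and 1.62, with an interaction of 0.26 (SE 0.334, 95% interval -0.39 to 0.92). Asns, the asparagine synthetase regulated by ATF4, had responses of 0.83 and 1.10 and an interaction of 0.27 (SE 0.306). Of the sensors and factors upstream, Xbp1 had an interaction of 0.12 (95% interval -0.29 to 0.54), Ern1 0.16 (-0.45 to 0.77), Atf4 0.10 (-0.36 to 0.57) and Ddit3 0.56 (-0.25 to 1.36). These are gene-level counts and do not show the splicing of Xbp1.

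By group, 15 of 33 genes for ER chaperones, folding and degradation rose in WT and 15 in mice labelled Ern2-/-, 13 of them in both, where 7.75% and 6.58% of all genes rose. At an unadjusted p under 0.05 the interaction was higher for 4 (12.1%, against 2.47% of all genes: Sel1l, Derl3, Ero1l and Edem3) and lower for 0, with a median of 0.16. It was higher for 10 (30.3%, median 0.39) with sex as a covariate and for 1 with all 18 libraries. With single libraries left out 2 to 7 were higher. The count was 2 without any 1 of GF-WT replicate 3, COLONIZED-WT replicate 1, GF-Ern2-/- replicate 3, COLONIZED-Ern2-/- replicate 1 and COLONIZED-Ern2-/- replicate 2. Without the 3 libraries whose Ern2 counts went against the label this turned, to 1 higher and 8 lower with a median of -0.16, in the fit that rests on GF-Ern2-/- replicate 2. Of 35 genes of the ATF4 and CHOP stress response 5 were higher (14.3%, Trib3, Slc7a1, Chac1, Atf5 and Stc2) and 0 lower, with a median of 0.10, which became 5 higher and 2 lower of 34 with a median of -0.02 without those libraries. The 5 were 2 with all 18 libraries, 1 without GF-WT replicate 3, and 3 when COLONIZED-WT replicate 2 or either of COLONIZED-Ern2-/- replicates 1 and 2 was left out. In WT 12 rose and 2 fell, and in mice labelled Ern2-/- 15 rose and 1 fell. The 32 genes of the ER translocon, signal peptidase and oligosaccharyltransferase had 12 members that rose in WT and 2 in mice labelled Ern2-/-. In the interaction 3 were lower (9.38%, against 3.29% of all genes: Krtcap2, Ssr2 and Dad1) and 0 higher, with a median of -0.19. The 3 were 0 with all 18 libraries and 3 to 5 with single libraries left out. The median was -0.05 with sex as a covariate and ran from -0.31 to -0.06 with single libraries left out. Without the 3 libraries 16 of 31 were lower, beside 1462 of 12275 genes in all (11.9%). Among 41 genes of XBP1 and secretory transport that the study named for their rise when ERN2 was induced in HEK293 cells, a human embryonic kidney line and a separate experiment, 11 rose in WT, and 8 rose and 2 fell in mice labelled Ern2-/-. In the interaction 6 were lower (14.6%, against 3.29% of all genes) and 0 higher. With sex as a covariate 2 were lower and 1 higher. When single libraries were left out 1 to 9 were lower (1 without COLONIZED-Ern2-/- replicate 2). Of 37 COPI and COPII vesicle genes 6 rose and 2 fell in WT, and 1 rose and 1 fell in mice labelled Ern2-/-. In the interaction 2 were lower (5.41%, against 3.29% of all genes) and 1 higher (2.70%, against 2.47%), with a median of -0.08. With sex as a covariate 0 were lower and 2 higher (median 0.07). The count of 2 lower was 0 without any 1 of COLONIZED-WT replicate 1, GF-Ern2-/- replicate 2 and COLONIZED-Ern2-/- replicates 2 and 3. It was 4 without COLONIZED-Ern2-/- replicate 1 and 6 without GF-Ern2-/- replicate 3. None of the 9 UPR sensors passed an unadjusted p under 0.05.

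Cytosolic ribosomal protein genes had a one-sided interaction. Of 83 tested genes 80 were below 0 and 59 were lower at an unadjusted p under 0.05 (71.1%, against 3.29% of all genes), 0 were higher and 0 were called. Their median response was 0.36 in WT and -0.24 in mice labelled Ern2-/-, and their median interaction was -0.62. In WT 5 of the 83 rose, where 7.75% of all genes did, and in mice labelled Ern2-/- 0 were called. Together they took 26111 to 39907 CPM in GF-WT and 40863 to 49445 in COLONIZED-WT, and 32891 to 37846 in GF-Ern2-/- and 25749 to 36735 in COLONIZED-Ern2-/-. COLONIZED-WT was above all other groups without overlap, and the other 3 groups overlapped. The count of 59 was 55 of 81 with edgeR and 75 of 80 without the 3 libraries whose Ern2 counts went against the label. It fell to 30 without GF-WT replicate 3 or COLONIZED-WT replicate 1. It was 32 when COLONIZED-Ern2-/- replicate 2 was left out and 35 when GF-Ern2-/- replicate 2 was. The share of Rn45s, given above, differed between the genotype labels, and its part in this result was not tested. Many ribosomal protein genes have pseudogene copies, and the counting of shared reads was not stated, so single members are uncertain.

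The enteroendocrine signature of 166 genes, also taken by the study from earlier work, had 13 members higher in the interaction at an unadjusted p under 0.05 (7.83%, against 2.47% of all genes) and 2 lower, with a median of 0.34. In WT 11 rose and 2 fell, and in mice labelled Ern2-/- 17 rose and 2 fell, where 7.75% and 6.58% of all genes rose. The 13 included Tac1 (substance P) and Chgb (chromogranin B), and were 7 without COLONIZED-WT replicate 3 or COLONIZED-Ern2-/- replicate 2 and 8 without GF-WT replicate 3, where 364, 150 and 258 of all genes were higher. Of 110 tested without the 3 libraries 23 were higher and 3 lower, beside 1589 and 1462 of 12275 genes in all. Proliferation genes rose in 24 of 25 cases in WT and 22 in mice labelled Ern2-/- (7.75% and 6.58% of all genes). At an unadjusted p under 0.05 their interaction was lower for 3 (12.0%, against 3.29% of all genes: Mcm7, Mcm6 and Mcm5) and higher for 1 (Bub1). With single libraries left out 0 to 5 were lower and 0 to 2 higher. The marker Mki67 had an interaction of 0.43 (SE 0.449, 95% interval -0.45 to 1.31). The stem cell marker Lgr5 had -0.47 (SE 0.431). Among secretory lineage factors, Spdef, which drives goblet cell maturation, rose by 1.37 in WT (adjusted p = 6.26e-05) and 1.19 in mice labelled Ern2-/- (adjusted p = 0.000719), Atoh1 had an interaction of 0.02 (SE 0.305) and Gfi1 -0.58 (SE 0.379). Surface colonocyte and ion transport genes fell in 12 of 32 cases in either label, 11 of them the same genes, where 6.99% of all genes fell in WT and 6.38% in mice labelled Ern2-/-. The acute phase gene Saa1 fell in both, with log2 responses of -4.81 and -4.43, and the oxidase Duox2 rose by 1.49 and 1.60. Circadian clock genes differed in their counts of calls, with 10 of 19 lower and 1 higher in WT and 2 lower in mice labelled Ern2-/- (6.99% and 6.38% of all genes were lower), while 14 of the 19 had an interaction above 0 (median 0.68), 3 of them at an unadjusted p under 0.05 (against 2.47% of all genes), beside 1 lower. The 3 were 7 without GF-WT replicate 1, 5 without GF-WT replicate 2, 2 without GF-WT replicate 3 (median 0.19) and 5 of 17 without the 3 libraries. The labels give no time of day. Interferon-stimulated and MHC class II genes had 1 lower member each at that p, of 36 and 24, where 3.29% of all genes were lower. With single libraries left out the interferon list had 1 to 3 lower and 0 to 7 higher members, and its median ran from -0.84 to 0.83. The MHC list had 0 to 2 lower and 0 to 1 higher, with medians from -0.58 to 0.13. GF-Ern2-/- replicate 1 had 3023 CPM of the interferon genes, against 719.6 and 945.1 in replicates 2 and 3. Of 16 mesenchymal markers 15 had an interaction below 0 (median -1.14), at summed levels of at most 40.5 CPM, and none was called in the interaction. The 1 above 0 was Vim (vimentin), with 0.89 (unadjusted p = 0.0337). With at least 10 counts in 3 libraries 2 of the 16 were tested, with a median of 0.23. Their part in the results above was not tested.

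**Figure D5:**
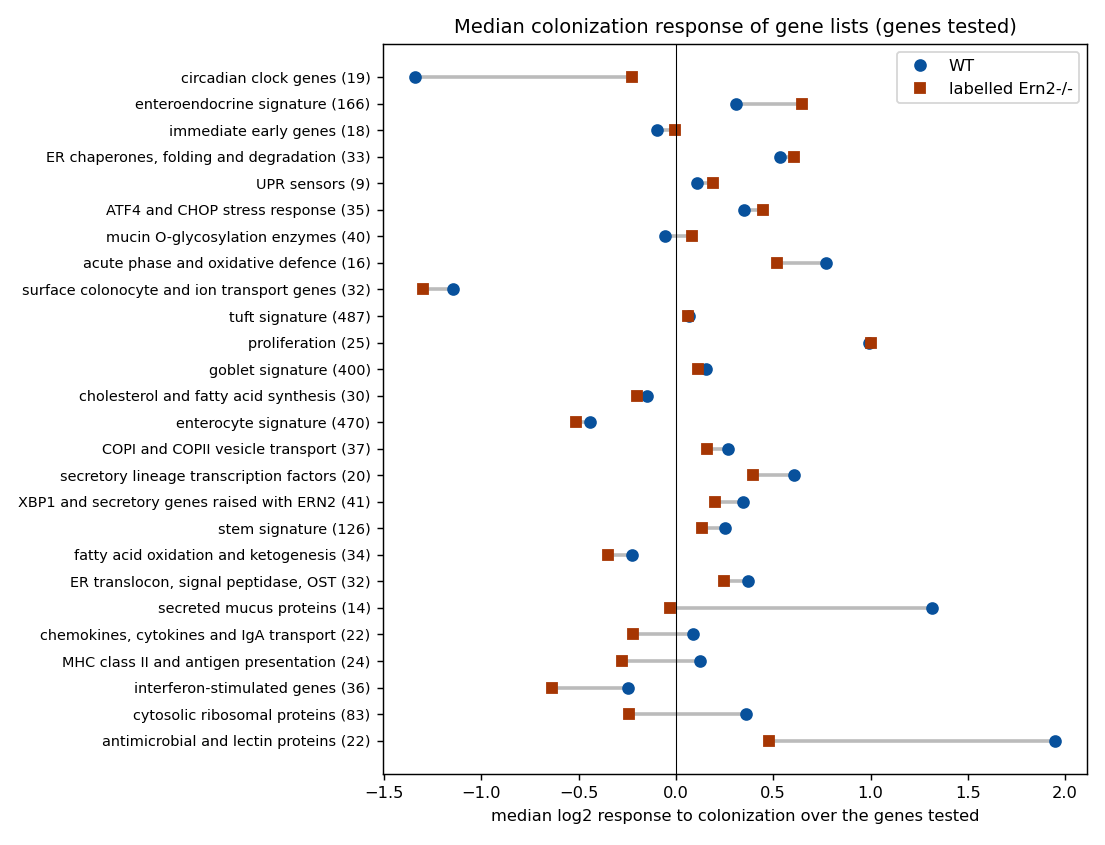
Median log2 response to colonization over the tested genes of each list (number in brackets) in WT mice (blue circles) and in mice labelled Ern2-/- (orange squares). The medians are 1.95 and 0.48 for antimicrobial and lectin proteins, 1.32 and -0.03 for secreted mucus proteins, and 0.36 and -0.24 for ribosomal proteins, while those of proliferation genes nearly coincide.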

How the data were processed

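RNA-Seq was performed on distal colon crypt epithelial cells. Per the study's methods, stranded mRNA libraries were sequenced as 75-cycle single-end reads, and the submitters' processing notes name STAR, DESeq2 and mm10. The authors deposited raw counts per gene symbol, not normalised and not pooled. Versions, annotation and strand setting were not given in the sources used here, so overlapping and antisense genes cannot be told apart. Each sample's label gives its column number, which placed all columns (columns of no sample: 0). Of the symbols, 27 read as dates and 2 occur more than once. Replicates differed by at least 14.1 in chi-square per degree of freedom, so none was counted as a repeat.

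One fit of 12 libraries was made with DESeq2 1.42.0 in R 4.3.3 (genotype, state and their product, Wald test, no shrinkage, and the tool's default size factors, Cook's filter and independent filtering), and a call needed an adjusted p (Benjamini-Hochberg, over all genes) under 0.01. DESeq2 and the threshold follow the study's methods. The responses in each label were taken from the same fit, so each response has the spread of all 4 groups. CONV libraries were fitted on their own. Unadjusted p-values are given as description, for lists and single genes. The scripts were tested on simulated data. Alternatives were the edgeR 4.0.16 quasi-likelihood test, a minimum of 10 counts in 3 libraries, no independent filtering, TMM factors, no Cook's filter, a threshold of 0.05, all 18 libraries, covariates for sex and library total, a replicate block, leaving out each library, and leaving out the libraries whose Ern2 counts go against the label. The CONV alternatives were chosen after seeing the data.

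Named genes were the called genes with a mean of at least 20 normalised counts (up to 12 in each direction), up to 3 called members per list, a fixed set of stress, mucus, defence and lineage genes, and the next genes by p up to 10 in each direction. The fifth called gene is not reported here. Members of the comparison and lists were chosen with earlier results of these data known. Gene coordinates are from GENCODE on mm10 and promoters from RefSeq. Low counts limit precision for genes with few reads, and intervals cover the spread between these libraries.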

Additional observations from a re-analysis of the deposited data

Results flagged for a closer look

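The responses to colonization of 4 genes differed between the genotype labels by the DESeq2 interaction test. The difference in log2 response was -4.97 for Pla2g4c, -4.30 for Meg3, -3.74 for Pnliprp2 and -3.45 for Itln1, each lower in mice labelled Ern2-/-. The edgeR quasi-likelihood test called none of them, at differences of -4.94, -4.26, -3.72 and -3.44.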

How the results depend on the processing

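The 5 calls stood at 5 under the count filter, without independent filtering, with TMM factors (which moved the median of all genes by 0.004), without Cook's filter and at a threshold of 0.05, and at 4 with library total as a covariate. They became 0 with edgeR, 0 with sex as a covariate, 1 other gene with all 18 libraries in the fit, and 419 without the libraries whose Ern2 counts go against the label. Called list members, 1 in the fit reported, became 0 with edgeR, 0 with sex or library total as a covariate, 0 with all 18 libraries and 73 without those libraries, and were 0 to 1 with single libraries left out. The 1933 genes called in WT became 787 with edgeR, 3188 at the threshold of 0.05, 1288 with all 18 libraries and 938 with sex as a covariate, and were 839 (without COLONIZED-WT replicate 1) to 2679 (without GF-Ern2-/- replicate 2) with single libraries left out. The 1743 called in mice labelled Ern2-/- became 653 with edgeR and 2866 at the threshold of 0.05, and were 893 to 1903 with single libraries left out, the lowest without COLONIZED-Ern2-/- replicate 2. Calls in the interaction were 0 to 5 over the same fits. Where 4 were called, without GF-WT replicate 1, 3 were higher. The CONV calls of the 5 genes were 0 with edgeR, 3 with sex as a covariate and 3 to 5 with single libraries left out. Ern2 reversed to 1.94 without the libraries chosen by its own counts. The 5 genes stayed below 0 in every setting run. With the replicate block 6 genes were called, 2 of them among the 5, and Ang4 was one of the others. Of the 4 named genes only Pnliprp2 was called there. The DESeq2 adjusted p was 0.0121 for Pla2g4c, 0.635 for Meg3 and 0.0131 for Itln1, at interactions of -4.85, -4.22 and -3.44. Libraries of 1 number did not pair throughout. Over 18 same-number pairs the correlation of deviations ran from -0.36 to 0.61, and 8 were over 0.1. Pairs of replicate 1 libraries were all above 0, from 0.08 to 0.61, while pairs of replicates 2 and 3 had both signs. Of 12 libraries 4 had their highest correlation with a library of their own number, though 0 did so in every other group. The causes of these changes were not tested. Counts under about 10 per library limit Meg3 and Mirg in GF mice.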
